A study of Mus musculus with 6 samples.

Results

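Gene expression in H1 triple-null line 2, a mouse embryonic stem cell line without functional genes for 3 linker histones, was compared with that in wild-type embryonic stem cells. The comparison rests on 4 of the 6 arrays of the study: the 2 whose titles name this line (ES_H1_3KO2, exp1 and exp2) and the 2 named ES_WT (exp1 and exp2). The other 2 arrays hold the first null line and enter the text only where the null lines are set against each other, and in an alternative fit given in the closing section. Line 2 is null for H1c, H1d and H1e, whose current symbols are H1f2, H1f3 and H1f4, and the wild-type cells carry all of these genes. Total RNA came from exponentially growing cells in both groups. The strain, sex, use of feeder cells and passage of the cells are not given in the sources used here, nor is whether line 2 is 1 clone or whether the arrays of a group came from separate cultures. The p-values therefore reflect only how far these arrays differ from each other, and that spread may be technical.

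A linker histone sits at the entry and exit of the DNA on a nucleosome and helps to pack nucleosomes into a compact fibre. Mammalian cells hold a family of them: H1f1 to H1f5 are made mainly in S phase, together with the core histones, whereas H1f10 is made throughout the cycle and H1f6 and H1f8 belong to germ cells. Embryonic stem cells are pluripotent cells of the early embryo with loosely packed chromatin, and the comparison asks which of their genes change in expression when linker histone is reduced.

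Signals are MAS5 values on a linear scale, here called intensity units, 1 value per probe set and array. The median over probe sets lay between 35.85 and 39.8 units on the 4 arrays, and the highest of 19 bacterial and yeast control probe sets, taken as background, was 9.2 and 17.2 units on the wild-type arrays and 12.5 and 16.8 on the line 2 arrays. Across the probe sets tested, which are not independent replicates, log2 signals correlated with r = 0.977 within wild type, r = 0.976 within line 2 and r between 0.961 and 0.972 between the groups. All 10 defining markers of embryonic stem cells were above background on all 4 arrays, and their summed signal was 8074 and 8001 units in wild type and 8331 and 8255 in line 2. Of these, Pou5f1, a core pluripotency factor, measured 1536 and 1527 units in wild type and 1787 and 1498 in line 2.

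The promoters of 4 genes that passed the test described further on are shown first, as the 150 bases before each gene start in the RefSeq annotation of GRCm38.p6, written 5′ to 3′ on the strand of the gene. H1f2, a targeted gene, and H1f5, a linker histone gene that is intact in line 2, both lie on chromosome 13. Capitals mark AAACACA, the core of the element known as the H1 box, and CCAAT, each on either strand.
H1f2 (chr13:23738657-23738806, plus strand): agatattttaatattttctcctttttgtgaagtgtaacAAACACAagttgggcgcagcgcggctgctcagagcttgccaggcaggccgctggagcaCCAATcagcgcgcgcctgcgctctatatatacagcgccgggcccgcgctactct
H1f5 (chr13:21780626-21780775, minus strand): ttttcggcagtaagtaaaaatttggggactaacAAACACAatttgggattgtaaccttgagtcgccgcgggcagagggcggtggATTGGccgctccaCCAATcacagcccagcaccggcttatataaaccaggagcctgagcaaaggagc
Both windows held 1 AAACACA, which began 112 bases before the start of H1f2 and 117 bases before that of H1f5. H1f2 had 1 CCAAT and H1f5 had 2. Among the 32851 RefSeq windows of this length, 3.53% held AAACACA, 24.5% held CCAAT and 0.791% held both. For Meg3, a non-coding RNA of the maternal chromosome, and Rhox5, an X-linked homeobox gene of the reproductive tract, capitals mark CG, the site of DNA methylation in mammals, because both genes are known to be silenced by methylation.
Meg3 (chr12:109540846-109540995, plus strand, the more upstream of 2 listed starts): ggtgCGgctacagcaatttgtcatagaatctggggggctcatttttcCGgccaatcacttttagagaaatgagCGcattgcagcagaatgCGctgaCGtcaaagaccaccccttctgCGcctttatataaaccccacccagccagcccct
Rhox5 (chrX:37754458-37754607, plus strand): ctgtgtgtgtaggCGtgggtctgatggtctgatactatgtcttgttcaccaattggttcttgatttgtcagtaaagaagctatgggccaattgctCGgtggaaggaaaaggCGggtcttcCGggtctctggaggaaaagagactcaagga
The Meg3 window held 6 CG and the Rhox5 window 4, beside a median of 4 and quartiles of 1 and 11 over all windows. DNA methylation was not measured on these arrays.

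Few probe sets differed beyond the spread between arrays. Of 7454 probe sets tested, 10 passed (0.134%): 7 were higher in line 2 (0.0939%) and 3 lower (0.0402%). The balance of directions turned with the processing, to 43 higher and 64 lower with a filter at the 60th percentile of signal and 79 higher and 96 lower with a variance prior that follows the signal. A probe set passed when the Benjamini-Hochberg adjusted p of limma was under 0.05. Changes are differences of log2(signal + 3), line 2 minus wild type, a scale that understates the change of dim genes. At an unadjusted p under 0.05 there were 1152 probe sets (15.5%), and 36 (0.483%) had an adjusted p under 0.1. The smallest two-sided p that an exact permutation of 2 and 2 arrays allows is 0.3333, so every call rests on the spread that limma shares across probe sets. Probe sets were tested when their mean over the 4 arrays reached 21.3 units, and 7 of the 10 calls were below that level in one group and so were tested only through the other. They were Meg3, Xlr3, H1f5, Eif2s3y and Sgip1, dim in wild type, and H1f2 and 162020_at, dim in line 2, and their p-values are not independent of that choice. Leaving out any 1 of the 4 arrays, which leaves a single array in a group, gave 0 calls in limma and 745 to 945 probe sets at an unadjusted p under 0.05.

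**Figure D1:**
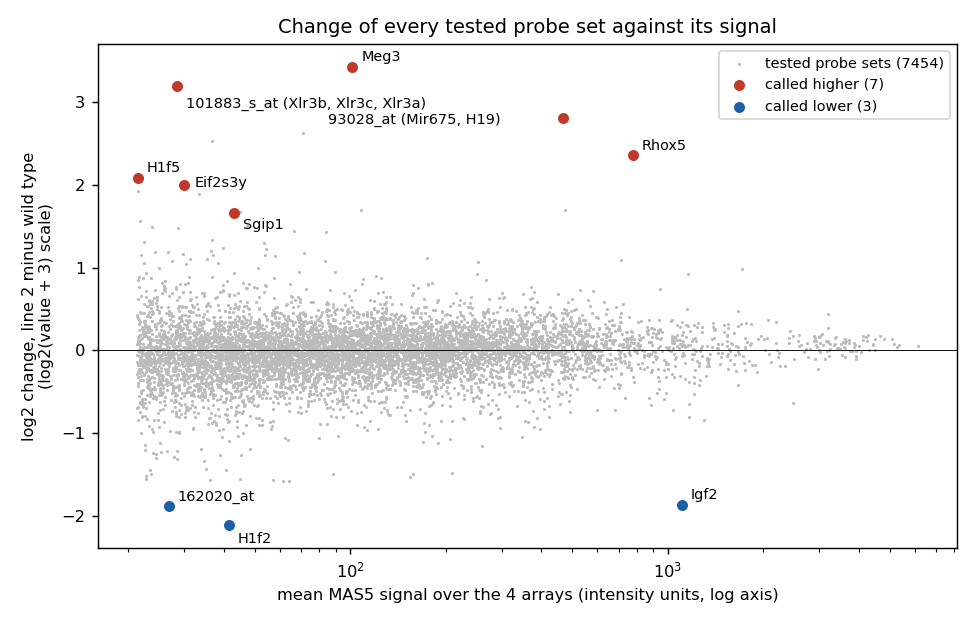
Each point is 1 of 7454 tested probe sets, with its mean signal over the 4 arrays on a log axis in intensity units and its log2 change, line 2 minus wild type, on the log2(value + 3) scale. Coloured points are the 10 that passed adjusted p 0.05, and they span dim probe sets such as that of H1f5, near the lowest mean tested (21.3 units), and bright ones such as that of Igf2.

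Among the linker histones, the signal of H1f2 fell and that of H1f5 rose. H1f2 measured 70 and 68.2 units in wild type and 13 and 14.4 in line 2, where 1 of the 2 arrays was above background. The difference was -2.11 ± 0.12 on the log2 scale (SE, limma adjusted p = 0.0236). H1f5 was at background on both wild-type arrays, at 5.7 and 6.9 units, and measured 38.3 and 34.8 in line 2. The rise was at least 2.9-fold, computed against the background of the wild-type arrays (limma adjusted p = 0.0236, in a probe set that was tested only through its level in line 2). The groups did not overlap for either gene. H1f3 and H1f4, the other targeted genes, read 2.1 units or less on all 4 arrays, below background in wild-type cells too, so their probe sets check nothing. The sources used here do not say whether the H1f2 probe set lies in the deleted part of the gene. H1f1 measured 17.2 and 25.8 units in wild type and 21.4 and 33.1 in line 2 (limma adjusted p = 0.631), and H1f10 read 202 and 282 units in wild type and 384 and 241 in line 2 (0.599). Both pairs of groups overlapped. The germ-cell genes H1f6 and H1f8 were too dim to be tested, with signals between 8.9 and 18.5 units.

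Other chromatin components were measured beside them. None of the 6 core histone genes tested passed in limma, and 1 was higher at an unadjusted p under 0.05, beside 6.84% of all genes tested. Their median change was -0.05 (-0.14 to 0.08 under the alternatives tried). H3c14, an H3 gene, read 13.5 and 30.3 units in wild type and 46.4 and 56 in line 2 (1.20, limma adjusted p = 0.249). One probe set that is listed with the H2B genes H2bc8, H2bc6 and H2bc4 read 110 and 108 units in wild type and 51.1 and 50.2 in line 2 (-1.06, limma adjusted p = 0.0946). HMG proteins, which compete with linker histones for nucleosomes, had 5 members tested. At an unadjusted p under 0.05, 1 was higher and 1 lower, beside 6.84% and 8.9% of all genes tested. Hmgn5 read 178 and 196 units in wild type and 294 and 295 in line 2 (0.65, limma adjusted p = 0.162), and Hmgb2 read 436 and 500 in wild type and 363 and 317 in line 2 (-0.46, 0.267). Of 11 DNA methylation genes, Dnmt3a, a de novo methyltransferase, had the smallest p, with 90.8 and 94.1 units in wild type and 165 and 140 in line 2 (0.70, limma adjusted p = 0.169). The 37 chromatin modifiers had a median of 0.06. Rnf2, the ubiquitin ligase of Polycomb complex PRC1, read -0.64 on its brightest probe set and 0.19 and 0.09 on the others.

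The imprinted pair Igf2 and H19 moved in opposite directions, and Meg3 rose. Igf2, the paternally expressed insulin-like growth factor 2, read 1714 and 1763 units in wild type and 465 and 485 in line 2, a difference of -1.86 ± 0.12 (SE, limma adjusted p = 0.0236). Its second probe set was at background on all 4 arrays. H19, the maternally expressed non-coding RNA beside Igf2, shares its probe set (93028_at) in the annotation with Mir675, the microRNA made from it. That probe set read 107 and 123 units in wild type and 811 and 829 in line 2, a rise of 2.81 ± 0.13 (SE, limma adjusted p = 0.014). In both cases the line 2 arrays lay close together and far from the wild-type arrays. Meg3 read 15.4 and 14.2 units in wild type, where 1 of 2 arrays was above background, and 183 and 194 in line 2, a rise of 3.43 ± 0.12 (SE, limma adjusted p = 0.00707). A second Meg3 probe set read 47.7 and 40.2 in wild type and 136 and 111 in line 2 (1.43, limma adjusted p = 0.0946). Dlk1, the paternally expressed neighbour of Meg3, read 84 and 97 units in wild type and 71.2 and 77.2 in line 2 (-0.27, limma adjusted p = 0.4).

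The imprinted genes as classes had medians near 0. Maternally expressed genes had 15 members tested, a median of -0.03 (-0.15 to 0.01 under the alternatives tried) and 1 call, Meg3. Paternally expressed genes had 14 members tested, a median of 0.00 (-0.16 to 0.08) and 1 call, Igf2. The median over all 5643 genes tested was -0.01, with 5 genes called higher (0.0886%) and 2 lower (0.0354%). Plagl1, a paternally expressed zinc finger factor, read 54.1 and 67.5 units in wild type and 17.6 and 23.6 in line 2 (-1.44 ± 0.19, SE, limma adjusted p = 0.106). Its line 2 mean was under the filter of 21.3 units, so it was tested only through wild type. Phlda2, a maternally expressed regulator of placental growth, read 259 and 277 units in wild type and 440 and 423 in line 2 (0.68, limma adjusted p = 0.148). Neither passed, although their groups did not overlap. Igf2r, the maternally expressed receptor that clears Igf2, read 195 and 218 units in wild type and 156 and 134 in line 2 (-0.50, limma adjusted p = 0.242).

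Around Igf2, most members of the IGF system read lower in line 2. Of 12 members tested, 8 had both line 2 arrays below both wild-type arrays and 0 had both above, beside 25.6% and 24.1% of all genes tested. The median was -0.42, but -0.21 without a filter and -0.27 over all probe sets of each gene, and Igf2 was the call. Binding proteins that hold IGF outside cells made up much of it. Igfbp3 read 385 and 363 units in wild type and 195 and 226 in line 2 (-0.82, limma adjusted p = 0.14). Igfbp2 read 1450 and 1403 in wild type and 1009 and 969 in line 2 (-0.53, limma adjusted p = 0.189). Igfbp4 read 119 and 104 in wild type and 71.4 and 55 in line 2 on its brightest probe set, and 0.42 higher in line 2 on another, so its direction depends on the probe set.

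**Figure D2:**
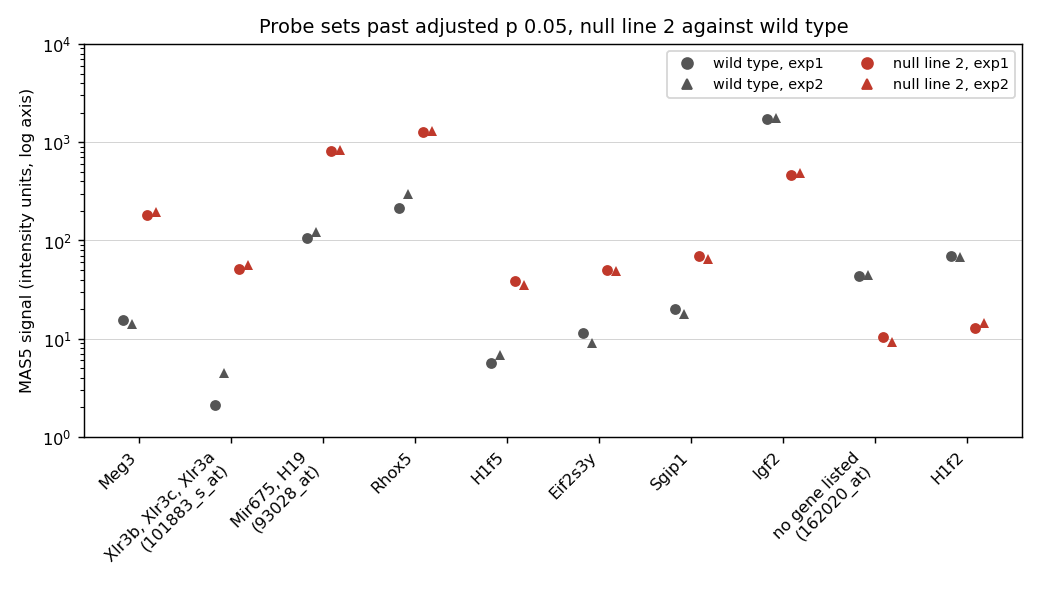
Signal in intensity units (log axis) of the 10 probe sets that passed adjusted p 0.05, with 1 point per array: grey for wild type, red for line 2, circles for exp1 and triangles for exp2. In each of the 10 the line 2 pair and the wild-type pair do not overlap. Wild type lies at background for the Xlr3 probe set and H1f5, and line 2 for 162020_at.

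Germline genes, which are normally silent outside germ cells, held the call for Rhox5. Rhox5 read 213 and 295 units in wild type and 1285 and 1310 in line 2, a rise of 2.36 ± 0.19 (SE, limma adjusted p = 0.0386), a call that was lost with a pseudocount of 0.5 and with quantile normalization. The line 2 arrays differed by less than the wild-type arrays did, and all 4 were well above background. Of 23 germline genes on the array, 11 were bright enough to be tested. Both line 2 arrays were above both wild-type arrays in 6 of them, beside 24.1% of all genes, and below in 1, beside 25.6%. Their median was 0.26. At an unadjusted p under 0.05, 5 were higher, against 6.84% of all genes, and 0 lower, against 8.9%. Cyct, the testis form of cytochrome c, read 23.8 and 16.5 units in wild type and 74.2 and 65.6 in line 2 (1.67, limma adjusted p = 0.0946). The wild-type mean of Cyct was under the filter, so it was tested only through line 2, and it enters the counts above. Zp3, an egg coat protein, read 32.8 and 37.1 in wild type and 79 and 82.4 in line 2 (1.14, 0.0946), and Tex19.1, a germ-cell factor that restrains transposons, read 97.2 and 119 in wild type and 206 and 273 in line 2 (1.12, 0.148). Fmr1nb, an X-linked gene of the testis that is in none of the lists, read 40.7 and 59.2 units in wild type and 163 and 169 in line 2 (1.70, limma adjusted p = 0.0946). The germline median was 0.69 when only probe sets above the 60th percentile of signal were tested.

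Sex-linked and shared-sequence probe sets made up the rest of the rises. The probe set 101883_s_at, listed with the X-linked genes Xlr3a, Xlr3b and Xlr3c, was at background in wild type, at 2.1 and 4.5 units, and read 51.3 and 56.2 in line 2. The difference was at least 4.27-fold (limma adjusted p = 0.0245, tested only through line 2), the call was lost with a pseudocount of 0.5, and the 3 genes cannot be told apart. Eif2s3y, the Y-linked copy of a translation initiation factor subunit, read 11.5 and 9 units in wild type, with 1 of 2 arrays above background, and 50.5 and 49 in line 2 (2.0 ± 0.14, SE, limma adjusted p = 0.0304). The Eif2s3y probe set is of a kind that can match several related transcripts, and its call was lost with quantile normalization. Eif2s3x, its X-linked copy, read 1134 and 1016 in wild type and 1140 and 1185 in line 2 (0.11, limma adjusted p = 0.698). Among the other Y-linked genes, Kdm5d and Uba1y were at background on all 4 arrays, and Uty was above it on 1 line 2 array. Sry read 16.2 and 18.1 units in wild type and was at background in line 2, at 7.7 and 13.2, at least 1.18-fold lower. Sry was too dim to be tested, and its other probe set was at background on all 4 arrays. Xist, the RNA that coats the inactive X chromosome, was below 10 units on all 4 arrays. Sgip1, an endocytic adaptor of neurons, read 20.2 and 17.9 units in wild type and 69.5 and 64.4 in line 2 on 160934_s_at (1.67 ± 0.13, SE, limma adjusted p = 0.0374), also a call that was lost with quantile normalization. Other probe sets listed with Sgip1, Noct and at times further genes were also higher, among them 93909_f_at at 460 and 450 units in wild type and 956 and 991 in line 2 (1.09, limma adjusted p = 0.0946). Noct, a circadian deadenylase, read 414 and 368 in wild type and 340 and 360 in line 2 on its brightest probe set of its own (-0.16, limma adjusted p = 0.598). The rise on the shared probe sets was thus not seen there.

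Among lists with at least 5 genes tested, medians ran from -0.44 to 0.26, and epithelial, basement membrane and contractile genes leaned lower as groups. The lists share members, such as Krt8 and Krt18, and no list was tested as a set. In each list below, the count is of genes whose line 2 arrays both lay below or both above the wild-type arrays, to be read against 25.6% below and 24.1% above over all genes.

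**Figure D3:**
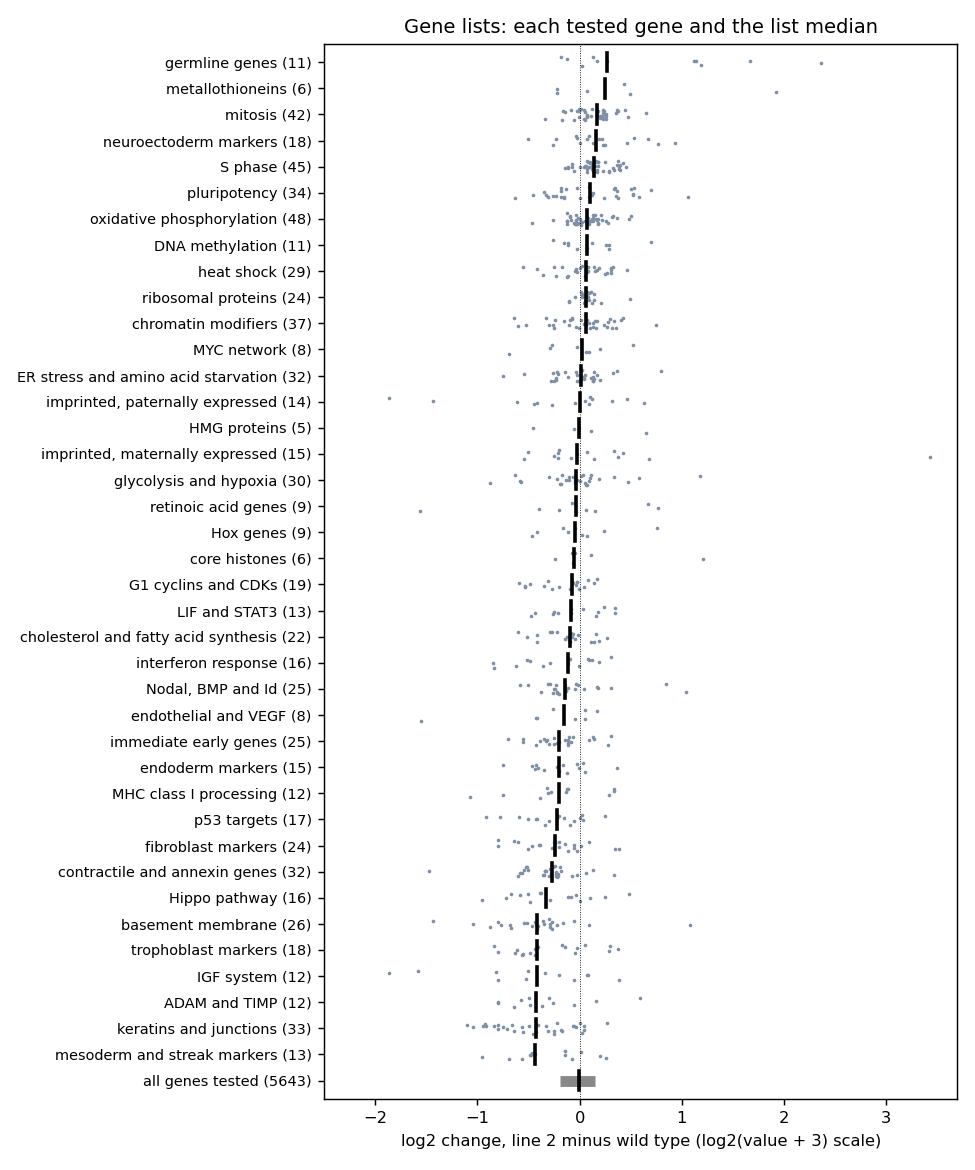
Each point is the log2 change of 1 tested gene, line 2 minus wild type, on the log2(value + 3) scale, by gene list with the number of genes in parentheses. Black bars are list medians, and the grey box at the bottom spans the quartiles of all 5643 genes tested, -0.19 to 0.16. Medians run from 0.26 for germline genes to -0.44 for mesoderm and streak markers.

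Keratins and cell junction genes, which give simple epithelia their filaments and contacts, were lower in 24 of 33 members and higher in 2, with a median of -0.43. No member passed in limma, and 19 were lower and 0 higher at an unadjusted p under 0.05, against 8.9% and 6.84% of all genes. The median stayed between -0.51 and -0.32 under the alternatives tried. Krt8 and Krt18, which pair in the filaments of simple epithelia, read 1476 and 1491 units and 1630 and 1719 in wild type. In line 2 they read 895 and 809 for Krt8 (-0.80 ± 0.12, SE, limma adjusted p = 0.138) and 1009 and 865 for Krt18 (-0.84 ± 0.14, 0.138). Emp1, an epithelial membrane protein, read 230 and 234 units in wild type and 105 and 108 in line 2 (-1.10 ± 0.11, SE, limma adjusted p = 0.0946). Perp, a desmosomal protein and target of p53, read 475 and 520 in wild type and 279 and 244 in line 2 (-0.92, limma adjusted p = 0.131). The desmosomal cadherin Dsc2 read 63 and 54.6 units in wild type and 30.8 and 28 in line 2 (-0.93, limma adjusted p = 0.13). Some other adhesion genes stood nearer 0, at -0.22 for Cdh1, the epithelial cadherin, -0.18 for Epcam and 0.04 for Ctnnb1, beta-catenin. They were named only after their values were seen.

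Basement membrane genes were lower in 22 of 26 members and higher in 1, with a median of -0.41 (-0.46 to -0.33 under the alternatives tried). No member passed in limma, and 15 were lower and 1 higher at an unadjusted p under 0.05. Col4a1 and Col4a2, the paired chains of its main collagen, stood at similar values. Col4a1 read 359 and 393 units in wild type and 203 and 226 in line 2 (-0.80, limma adjusted p = 0.138), and Col4a2 read 344 and 353 in wild type and 205 and 201 in line 2 (-0.77, 0.132). Hspg2, the heparan sulphate proteoglycan perlecan, read 433 and 507 units in wild type and 239 and 213 in line 2 (-1.04, limma adjusted p = 0.118). Lamb3, a chain of the epithelial laminin 332, read 39.6 and 31.1 in wild type and 15.1 and 7.9 in line 2 (-1.44, limma adjusted p = 0.168). Its partner chain Lama3 was the member that was higher, with 20.3 and 13 units in wild type and 33.8 and 42.4 in line 2 (1.08, limma adjusted p = 0.185). Lamb3 was under the filter in line 2 and Lama3 in wild type, so each was tested only through the other group. Both enter the counts above.

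**Figure D4:**
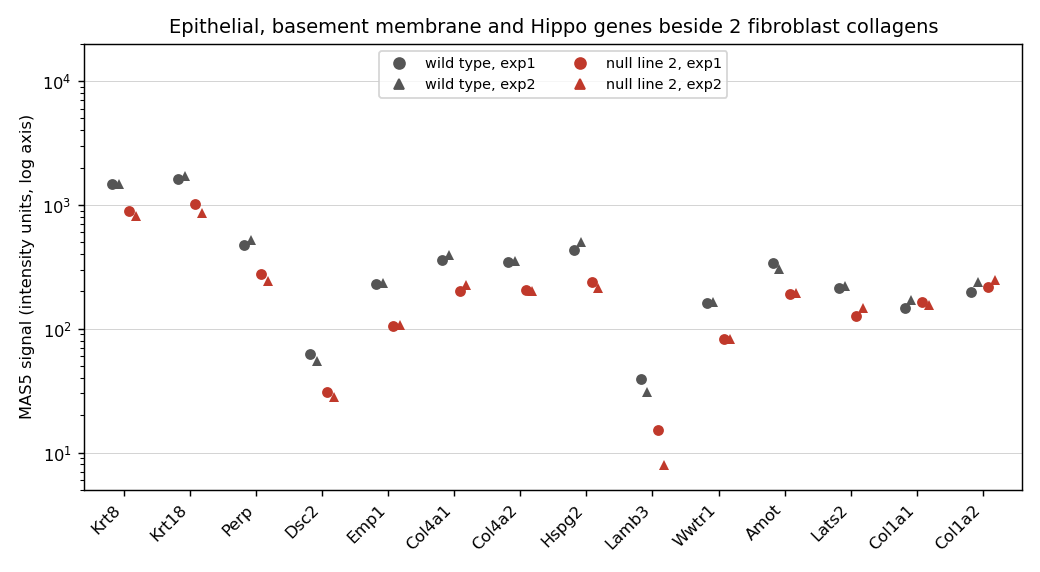
Signal in intensity units (log axis) of keratin, junction, basement membrane and Hippo pathway genes and of the fibroblast collagens Col1a1 and Col1a2, with 1 point per array: grey for wild type, red for line 2, circles for exp1 and triangles for exp2. Both line 2 arrays lie below both wild-type arrays for the first 12 genes, and the groups overlap for Col1a1 and Col1a2. These collagens do not stand for all fibroblast markers. Among the other defining ones, not drawn, Dcn was lower on both line 2 arrays, Thy1 and Col3a1 were higher, and Postn and Lum overlapped. The wider fibroblast list summed lower in line 2.

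Contractile and annexin genes, which build and anchor the actin cortex, were lower in 25 of 32 members and higher in 0, with a median of -0.27 and 9 lower at an unadjusted p under 0.05. Myh9, a non-muscle myosin heavy chain, read 1081 and 1267 units in wild type and 784 and 774 in line 2 (-0.59, limma adjusted p = 0.196). Anxa1, a membrane-binding annexin, read 438 and 420 in wild type and 282 and 282 in line 2 (-0.60, limma adjusted p = 0.168). Genes of the Hippo pathway, which carries signals of cell contact to the nucleus, were lower in 9 of 16 members and higher in 2, with a median of -0.33 that was -0.13 without the exp1 array of line 2. Wwtr1, the co-activator TAZ, read 162 and 163 units in wild type and 81.9 and 82.7 in line 2 (-0.95 ± 0.11, SE, limma adjusted p = 0.0946), and its dimmer probe set read -0.44. The kinase Lats2 read 215 and 220 in wild type and 126 and 146 in line 2 (-0.67, limma adjusted p = 0.169), and Amot, an inhibitory partner of TAZ, read 337 and 303 in wild type and 189 and 195 in line 2 (-0.73, 0.148). Tead2 and Tead4, the DNA-binding partners, stood at 0.00 and 0.10. Surface proteases of the ADAM family and their TIMP inhibitors were lower in 6 of 12 and higher in 1, with Timp3 at 64.7 and 59.7 units in wild type and 35.9 and 33.2 in line 2 (-0.80, limma adjusted p = 0.138) and Adam19 higher, at 94.9 and 92.8 in wild type and 146 and 141 in line 2 (0.59, 0.169).

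Markers of other cell types were read beside these groups. Trophoblast markers, of which Krt8, Krt18 and Krt7 are also keratins above, were lower in 10 of 18 members and higher in 0 (median -0.42, but -0.27 without the exp2 array of wild type and -0.29 without a filter), and the summed signal of the 22 on the array was 4526 and 4737 units in wild type and 3154 and 2913 in line 2, with 3 of the 22 at background on all 4 arrays. Gata3, a trophoblast transcription factor, read 24.2 and 30.5 units in wild type and 15.5 and 17.6 in line 2 (-0.63, limma adjusted p = 0.217). The line 2 mean of Gata3 was under the filter, so it was tested only through wild type. Mesoderm and streak markers were lower in 8 of 13 and higher in 1 (median -0.44, but -0.11 without a filter), and the 32 on the array summed to 941 and 1077 units in wild type and 831 and 859 in line 2, with 14 of them at background throughout. Among them Wnt3, a signal of the primitive streak, read 101 and 104 in wild type and 71.3 and 75 in line 2 (-0.47, limma adjusted p = 0.217). Endoderm markers were lower in 7 of 15 and higher in 0 (median -0.20, but -0.38 without the exp2 array of line 2, -0.33 without the exp1 array of wild type and -0.12 without a filter), with sums of 4406 and 4726 units in wild type and 3986 and 4036 in line 2. The 7 defining fibroblast markers summed to 424 and 477 units in wild type and 457 and 478 in line 2, overlapping between the groups. None of these was at 0, but Postn, a matrix protein of fibroblasts, was above background on only 1 wild-type array, at 7.4 to 10.5 units on all 4. Lum was likewise above background on only 1 wild-type array, at 12.4 to 16.5 units. Thy1 was at background on both wild-type arrays and above it on 1 line 2 array. Single members went opposite ways within that sum. Dcn read 26 and 23.6 units in wild type and 12.9 and 10.3 in line 2, where 1 array was above background. Thy1 and Col3a1 were higher on both line 2 arrays, and the rest overlapped. Dcn, Thy1, Postn and Lum were too dim to be tested. The wider list of 41 fibroblast markers shares Sparc and other matrix genes with the lists above. Its sums did not overlap, at 7076 and 7165 units in wild type and 5860 and 5724 in line 2. In whole cultures, fewer cells of a type and less RNA per cell cannot be told apart, and the part of these markers in the gene groups was not tested.

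More pluripotency genes read higher than lower in line 2. Of 34 members tested, 15 had both line 2 arrays above, beside 24.1% of all genes, and 10 both below, beside 25.6%, with a median of 0.10 (0.04 to 0.17 under the alternatives tried). None passed in limma, with 9 higher at an unadjusted p under 0.05, beside 6.84%, and 3 lower, beside 8.9%. Nanog and Sox2, core factors beside Pou5f1, stood at -0.18 and -0.15. Fbxo15, an F-box protein of embryonic stem cells, read 170 and 156 units in wild type and 336 and 351 in line 2 (1.06 ± 0.12, SE, limma adjusted p = 0.0946). Dppa3 and Dppa2, maternal and early embryonic chromatin proteins, were at 0.70 and 0.58, with 244 and 214 units against 380 and 366 for Dppa3. Slc2a3, a glucose transporter, read 2921 and 3090 units in wild type and 1781 and 2098 in line 2 (-0.64, limma adjusted p = 0.187). Mycn, the MYC family member of embryonic cells, read 309 and 272 in wild type and 415 and 422 in line 2 (0.53, limma adjusted p = 0.214).

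Neuroectoderm markers were higher in 5 of 18 and lower in 1, with a median of 0.16 that was -0.02 without the exp2 array of line 2 and -0.01 without the exp1 array of wild type. Their summed signal overlapped between the groups, at 1847 and 2179 units in wild type and 2055 and 2193 in line 2. The retinoic acid binding proteins Crabp1 and Crabp2 stood at 0.67 and 0.76 (limma adjusted p = 0.176 and 0.173), while the median of the 9 retinoic acid genes was -0.04 (-0.12 to 0.06 under the alternatives tried) and the receptor Rarg read 102 and 65.6 units in wild type and 46.6 and 13.6 in line 2 (-1.57, 0.293). The medians of the 9 Hox genes tested (-0.04) and of the LIF and STAT3 genes (-0.08) had no stable sign, with ranges from -0.16 to 0.16 and from -0.16 to 0.08 under the alternatives tried. The Nodal, BMP and Id genes had a median of -0.14. Endothelial genes had a median of -0.16, which was -0.37 without the exp2 array of line 2, -0.06 without either wild-type array and 0.00 with the filter at the 60th percentile. Flt1, a VEGF receptor, read 64.5 and 65.2 units in wild type and 9.3 and 40.7 in line 2 (-1.55, limma adjusted p = 0.318).

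Genes of S phase and mitosis leaned slightly higher, but those of G1 did not. S phase genes had 24 of 45 members with both line 2 arrays above and 0 with both below, and a median of 0.14. Mitosis genes had 22 of 42 above and 4 below, and a median of 0.17. The changes of single genes were small: Rpa1, a single-strand DNA binding protein of replication, read 466 and 440 units in wild type and 613 and 581 in line 2 (0.40, limma adjusted p = 0.257). Pttg1, securin, read 244 and 231 in wild type and 372 and 374 in line 2 (0.65, limma adjusted p = 0.155), and Top2a, a topoisomerase of dividing cells, stood at 0.45. On the other side, G1 cyclins and CDKs had 2 of 19 members above and 6 below, and a median of -0.08. Among them Ccng2, a cyclin of arrested cells, read 95.5 and 91.6 in wild type and 62.9 and 64 in line 2 (-0.54, limma adjusted p = 0.187). The p53 targets were lower in 10 of 17 and higher in 0 (median -0.23). Ribosomal protein genes were higher in 13 of 24 and lower in 0, by a median of 0.06.

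**Figure D5:**
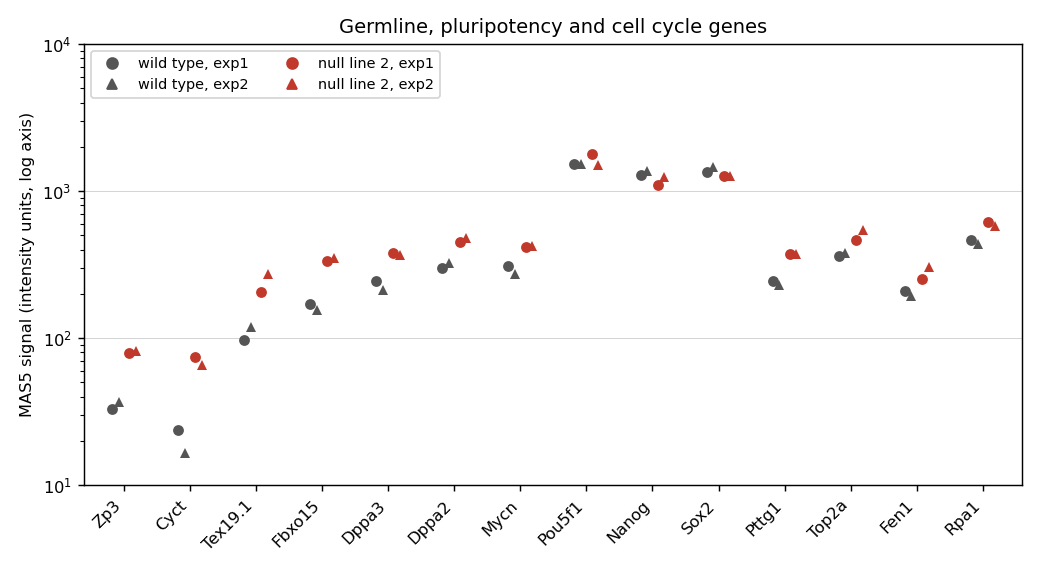
Signal in intensity units (log axis) of germline, pluripotency and cell cycle genes, with 1 point per array: grey for wild type, red for line 2, circles for exp1 and triangles for exp2. Line 2 lies above wild type on both arrays for all but Pou5f1, where the groups overlap, and Nanog and Sox2, where it lies below.

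Immune and stress genes were mixed. MHC class I processing genes were lower in 8 of 12 members and higher in 2 (median -0.21). Tapbp, tapasin, which loads peptides onto MHC class I, read 288 and 276 units in wild type and 140 and 125 in line 2 on its brightest probe set (-1.07 ± 0.13, SE, limma adjusted p = 0.0946) and -0.40 and -0.14 on 2 others. Immediate early genes, which answer growth signals, were lower in 14 of 25 and higher in 2 (median -0.20). Mafk, a small bZIP partner protein, read 70.1 and 73 in wild type and 43.8 and 41.9 in line 2 (-0.70, limma adjusted p = 0.141). Metallothioneins, which bind zinc and copper, had 3 of 6 members higher and 1 lower (median 0.25, and -0.21 without the exp2 array of line 2). Mt4, the form of stratified epithelia, was at background in wild type, at 6.2 and 8.2 units, and read 40.5 and 31.2 in line 2, at least 2.83-fold above background. Its mean over the 4 arrays reached the brightness filter only through line 2. Mt1 and Mt2, the common forms, were at 0.50 and 0.44. Interferon response genes had a median of -0.12 (-0.29 without the exp2 array of line 2 and -0.03 without a filter). Heat shock, endoplasmic reticulum stress, glycolysis, oxidative phosphorylation and cholesterol synthesis genes had medians between -0.10 and 0.08. Xbp1, a factor of the unfolded protein response, read 138 and 119 units in wild type and 222 and 226 in line 2 (0.80, limma adjusted p = 0.141).

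Some genes that are in no list had p-values near those of the groups above. Vnn1, a pantetheinase, read 84.3 and 90.6 units in wild type and 37.5 and 41.7 in line 2 (-1.09, limma adjusted p = 0.0946). Efnb1, an X-linked ephrin, read 43.3 and 42.5 in wild type and 20.9 and 20.8 in line 2 (-0.94, limma adjusted p = 0.0969). Wls, which carries Wnt proteins to the surface, read 265 and 226 in wild type and 121 and 115 in line 2 (-1.03, limma adjusted p = 0.106). Cela1, an elastase, read 22.2 and 20.5 in wild type and 48.3 and 50.7 in line 2 (1.11, limma adjusted p = 0.0946), and Gsta4, a glutathione transferase, read 274 and 272 in wild type and 468 and 467 in line 2 (0.77, 0.131). Groups did not overlap for any of these 5 genes. Further genes reached by the naming rule, of which Gbp2 is in the interferon list, stood at 0.95 to 1.48 (Pipox, Chrne and Hcrt) or at -0.85 to -1.12 (Gbp2, Lxn, Phldb2 and Tnfsf9), with limma adjusted p-values from 0.102 to 0.123. Of all the genes in this paragraph, Hcrt was under the filter in wild type, and Efnb1 and Tnfsf9 were under it in line 2. Each of them was thus tested only through the other group.

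Few probe sets separated line 2 from the other null line. In a fit to all 6 arrays, 2 of 7453 probe sets differed between the null lines (0.0268%), both lower in line 2, and neither passed when only the 4 null arrays were fitted. For 9 of the 10 calls the difference between the lines was between -0.54 and 1.44 with limma adjusted p-values from 0.348 to 0.903, which does not show that the lines were alike. Xlr3 (101883_s_at) had the smallest p among these 9, at 51.3 and 56.2 units in line 2 and 16.3 and 19.7 in line 1. Igf2 read 465 and 485 units in line 2 and 597 and 723 in line 1. The tenth call, 162020_at, which has no gene listed, read 43.6 and 44.1 units in wild type and was at background in line 2, at 10.3 and 9.2, at least 3.03-fold lower (limma adjusted p = 0.0236). In line 1 it read 32.5 and 34.2 units, and line 2 was at least 2.3-fold lower than line 1 (limma adjusted p = 0.0473). The other probe set that differed, that of Prp2, a proline-rich protein, read 28.2 and 28.3 units in wild type and 26.7 and 24.5 in line 2, but 127 and 106 in line 1 (-2.06, limma adjusted p = 0.0316). Sh3bp1, a Rac-directed GTPase-activating protein, read 111 and 77.8 units in wild type, 30.1 and 27.9 in line 2 and 122 and 110 in line 1, and its difference between the lines was -1.89 (limma adjusted p = 0.102).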

How the data were processed

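RNA of 2 wild-type and 2 line 2 samples was measured on arrays of 12488 probe sets. The authors deposited intensity values on a linear scale, computed by MAS5 (version not given) according to the labels' tool list, per the submitters' processing notes. The trimmed mean was the same on every array, so the deposited scaling was kept, and the number of arrays limits the precision. Of these probe sets, 10833 are listed with 1 gene in the platform annotation, 396 with several, named here by identifier, and 1193 with none. Symbols were updated through RefSeq tables of GRCm38.p6, which matched 10817. The 66 control probe sets were left out.

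Values were tested as log2(value + 3) by lmFit and eBayes of limma 3.58.1, run in R 4.3.3 with a mean per group, where the mean of the 4 arrays reached the 40th percentile (21.3 units). Adjustment was by Benjamini-Hochberg over all 7454 probe sets, with 2 residual and 3.018 prior degrees of freedom. Line 2 minus line 1 came from a fit to all 6 arrays. The brightest probe set stands for a gene. At-least folds use each dim array's highest of 19 control signals. On simulated data with 7454 probe sets for line 2 minus wild type, 50.5% of 2-fold and 94.5% of 4-fold changes were called, and 4.164% of calls were false. The simulated noise was normal, independent between probe sets and drawn from limma's own variance prior, with 200 probe sets shifted after the filter. These rates hold under those assumptions and are not the error rates of the calls on the real arrays.

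The naming rule took, in each direction, the 15 biggest changes among calls without overlap of the groups, filled by smallest p, then linker histones, Xist and Y-linked genes, and from each list the 4 genes with the smallest p. Cell type markers, Dlk1, Eif2s3x, Noct, Cdh1, Epcam, Ctnnb1, Lama3, Tead2, Tead4 and Prp2, and probe sets without a single gene, were added after their values were seen. The comparison, gene lists and alternatives were chosen with earlier results of these data known. Genes of the 2-cell stage had no member bright enough to be tested. Alternatives were pseudocount, filter, normalization, variance prior, arrays in the fit, replicate block, call rule and leaving out each array. Figures were drawn with matplotlib 3.10.9.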

Additional observations from a re-analysis of the deposited data

Results flagged for a closer look

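The probe set 162020_at, for which no gene is listed, differed between the null lines by the test of that difference itself. Line 2 minus line 1 was -1.51 on the log2(value + 3) scale (limma adjusted p = 0.0473). Line 2 was at background on both arrays, so only a bound of at least 2.3-fold lower can be given. The signals were 10.3 and 9.2 units in line 2, 32.5 and 34.2 in line 1 and 43.6 and 44.1 in wild type. The cause was not tested.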

How the results depend on the processing

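The count of 10 probe sets (7 higher, 3 lower) in line 2 against wild type moved widely with the processing. It was 24 (17 higher, 7 lower) with a pseudocount of 16, 107 (43 higher, 64 lower, 4 of the 10 kept) with the filter at the 60th percentile, 175 (79 higher, 96 lower, all 10 kept) with a variance prior that follows the signal, 24 (16 higher, 8 lower, all 10 kept) with all 6 arrays in the fit, and 36 (22 higher, 14 lower) at an adjusted p under 0.1. It was 0 in limma without a filter (1152 at an unadjusted p under 0.05) and 0 in each of the 4 fits that left out 1 array (745 to 945). Same-numbered arrays of line 2 and wild type correlated at only 0.0983 in their deviations, so the numbers were not taken as pairs, and with the experiment number as a replicate block the count was 0 (1149 at an unadjusted p under 0.05). A pseudocount of 0.5 gave 8 calls, without Rhox5 and Xlr3, and quantile normalization also gave 8, of which 7 were among the 10, without Rhox5, Eif2s3y and Sgip1. The 2 calls of line 2 minus line 1 became 0 with only the 4 null arrays (465 at an unadjusted p under 0.05). The filters, variance prior, fit to all 6 arrays and replicate block cannot change a gene's value, so their part of the next count was fixed. Over 167 named genes, 1925 of 1929 alternative values kept their direction. The exceptions came from leaving out 1 array: H2az2 ranged from -0.19 to 0.039 (positive without the exp2 array of line 2), Hmga2 from -0.26 to 0.15 (positive at 0.082 and 0.15 without the exp1 array of wild type or of line 2) and Pecam1 from -0.57 to 0.040 (positive without the exp2 array of wild type). Of 390 alternative list medians, 323 stayed within 1 SD and 67 moved further, among them Hippo (-0.33 to -0.12) and mesoderm and streak markers (-0.44 to -0.11) without a filter. The cause of these shifts was not tested, and probe sets near background carry only bounds.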
